A study of Mus musculus with 40 samples.

Results

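Milk protein genes and genes of the prolactin pathway were followed in the mammary gland of mice that had no ovarian hormones. The 10 genes were taken by their symbols from the 47729 listed in the gene tables: the caseins Csn1s1, Csn2 and Csn3, the whey protein genes Wap, Lalba, Wfdc18 and Ltf, the folate receptor gene Folr1, the prolactin receptor gene Prlr and the transcription factor gene Stat5a. All mice were Balb/cJ females that had been ovariectomised at 21 days of age and given 7 days to recover, so the control mice also lacked ovaries. RNA was measured in number 4 inguinal glands freed of the lymph node, in tissue between the teat and the place of the node. Mice drank 200 nM estrogen on the control diet, ate a diet with 2.7% conjugated linoleic acid (CLA, a group of isomers of linoleic acid), or ate the control diet alone, which was based on AIN 93G. The 8 groups were estrogen at 60 h and at 84 h with controls of the same times, and CLA at 108 h and at 132 h with controls of the same times. Each group held 5 mice.

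Prolactin is a pituitary hormone that drives the secretory differentiation of the mammary epithelium in pregnancy and lactation. It binds its receptor on the epithelial cell, the receptor activates the kinase JAK2, and JAK2 phosphorylates STAT5A and STAT5B, which enter the nucleus and bind the promoters of casein and whey protein genes. Estrogen acts on a subset of luminal cells and drives growth of the ducts rather than milk synthesis, and it also raises prolactin secretion from the pituitary. STAT5 is used by the growth hormone receptor and by cytokine receptors as well, and it is abundant in fat cells, which make up most of the tissue around the ducts.

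STAT5 dimers bind a palindrome whose letters are TTCNNNGAA, which reads the same on both strands. Promoter windows of 300 bases, from 250 before to 50 after each start, were taken from RefSeq (build GRCm38.p6) for 8 of the 10 genes. Csn3 and Folr1 were not among them. The palindrome was present in 8.29% of all windows of that length (2722 of 32817), and in a window of Csn1s1, of Csn2 and of 1 of the 3 starts of Prlr. The stretches below run from −150 to −31 of the start, on the coding strand, with the palindrome in capitals. Both caseins are shown because they hold it, Prlr because it encodes the receptor of the same pathway, and Lalba as a milk protein gene whose window does not hold these letters. The stretches lie at chr5:87666058-87666177 on the plus strand for Csn1s1, chr5:87699456-87699575 on the minus strand for Csn2, chr15:10223756-10223875 on the plus strand for Prlr and chr15:98482714-98482833 on the minus strand for Lalba. The first base of the palindrome is at −100 in Csn1s1, at −93 in Csn2 and at −110 in Prlr.
Csn1s1: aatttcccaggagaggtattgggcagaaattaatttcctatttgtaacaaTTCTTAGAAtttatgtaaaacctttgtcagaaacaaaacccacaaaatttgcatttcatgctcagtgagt
Csn2: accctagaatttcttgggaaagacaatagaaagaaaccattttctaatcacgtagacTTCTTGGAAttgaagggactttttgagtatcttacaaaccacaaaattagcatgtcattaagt
Prlr: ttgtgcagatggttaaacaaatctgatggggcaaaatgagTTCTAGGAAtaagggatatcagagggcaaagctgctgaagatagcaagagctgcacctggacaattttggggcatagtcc
Lalba: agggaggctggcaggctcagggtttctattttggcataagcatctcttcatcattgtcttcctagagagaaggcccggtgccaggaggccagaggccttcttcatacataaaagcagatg

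The 3 casein genes lie within 1 cluster on chromosome 5 in the GENCODE annotation of GRCm38: Csn1s1 at 87666208 to 87682578, Csn2 at 87692624 to 87699630 and Csn3 at 87925579 to 87932665. Wap (6635482 to 6638637), Wfdc18 (83709015 to 83711348) and Stat5a (100859351 to 100885169) are on chromosome 11. Lalba (98480400 to 98482721) and Prlr (10177238 to 10349180) are on chromosome 15, Ltf is on chromosome 9 (111019271 to 111042767) and Folr1 on chromosome 7 (101858331 to 101870788). Csn3 overlaps the antisense gene 1700066N21Rik, Folr1 overlaps Anapc15 and Stat5a overlaps Stat3, each on the other strand, and Prlr overlaps Gm21973 on the same strand. The library kit marked strand, but whether the counting used it is not given in the sources used here, so reads of these pairs may be shared, as may reads of the close paralogs Stat5a and Stat5b.

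Libraries held 18.2 M to 40.0 M counts (M, mega), with 20707 to 22621 genes detected. Genes of skin and hair, a tissue beside the gland, averaged 3.42 to 7.06 log2 CPM (counts per M counts of the library) in 9 libraries and −3.22 to 2.06 in the other 31. The 9 were 1 estrogen library at 60 h and 3 at 84 h, none with CLA, and among controls 2 at 108 h and 3 at 132 h. Luminal epithelial markers were summarised as the mean of 17 genes such as Krt8, Krt18 and Epcam, without the hormone targets Areg, Pgr and Wnt4 of the same list, which were left out after their values were seen. This mean ran from 0.26 to 4.88 log2 CPM, with no gap, and its 6 lowest libraries lay between 0.26 and 1.74. They were replicate 3 of CLA at 108 h, replicate 1 of CLA at 132 h, and among controls replicate 3 at 60 h, replicates 1 and 2 at 84 h and replicate 4 at 132 h. None was from an estrogen-treated mouse. In bulk tissue, fewer cells of a type and less RNA per cell cannot be told apart.

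Levels per length, in RPKM (a read count divided by gene length in kb and by library size), show which of these genes the gland held at all. By group mean, Stat5a had 6.02 to 10.5 RPKM, Ltf 1.65 to 10.1, Wfdc18 1.17 to 9.15, Lalba 2.28 to 5.28, Csn3 0.67 to 5.75, Prlr 1.28 to 2.39 and Folr1 0.0515 to 0.256. Csn1s1, Csn2 and Wap, which are among the most abundant mRNAs of a lactating gland, were at the limit of detection. The 2 kinds of value were not proportional for every gene: CPM divided by RPKM ran from 5.41 to 7.31 between groups for Prlr, from 3.78 to 6.0 for Folr1 and from 0.60 to 1.0 for Csn3. In the tests, 7 of the 10 genes passed the filter on low counts and these 3 did not.

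Csn1s1 encodes alpha-S1 casein. Its counts in the 5 libraries were 3, 1, 0, 1 and 1 with estrogen at 60 h (6 in all), against a sum of 1 in controls. At 84 h they were 0, 10, 3, 1 and 2 with estrogen (16 in all), against a sum of 1 in controls. At each of these times 1 of 5 estrogen libraries and 4 of 5 control libraries held 0 counts. Of the 16 counts with estrogen at 84 h, 10 came from replicate 2. With CLA the sums were 2 at 108 h and 2 at 132 h, against 0 in controls at each time, a level that allows up to 3 counts per group, or 0.0192 and 0.0246 CPM. Csn2, which encodes beta-casein, summed to 3 counts with estrogen and 0 in controls at 60 h, and to 0 with estrogen and 2 in controls at 84 h. With CLA, Csn2 summed to 2 counts against 0 in controls at 108 h, and to 0 in both groups at 132 h. Wap, the whey acidic protein gene, summed to 0 counts with estrogen and 3 in controls at 60 h, to 1 and 3 at 84 h, to 3 with CLA and 0 in controls at 108 h, and to 0 and 3 at 132 h. In an edgeR fit with no filter, none of the 3 passed in any treatment comparison. The smallest adjusted p was 0.155 for Csn1s1 with estrogen at 84 h, over 28101 genes.

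**Figure D1:**
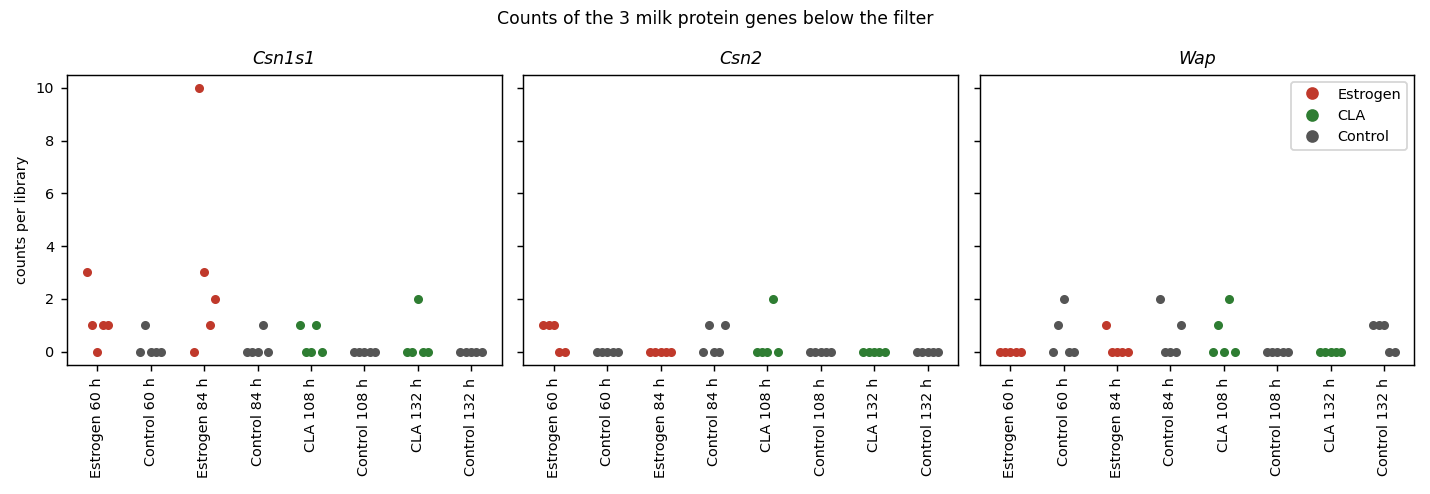
Counts per library (vertical axis) of Csn1s1, Csn2 and Wap in the 8 groups (horizontal axis), 1 point per mouse. The highest value is 10 counts of Csn1s1 in 1 estrogen library at 84 h, and most libraries are at 0.

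Estrogen at 60 h raised 6 of the 7 tested genes (Csn3, Wfdc18, Ltf, Folr1, Prlr and Stat5a) and lowered none, by edgeR's quasi-likelihood test at an adjusted p of at most 0.05. Over all 17248 genes tested, 6.49% were called, 4.07% of them higher and 2.42% of them lower, as shares of the genes tested. Among these called genes the groups of Prlr overlapped and those of the others did not. For genes already picked by the test, this separation is no further support. The share of all tested genes whose groups do not overlap is not given here. Separation of groups, at any time and with either agent, therefore sets no gene apart. The count rests on single libraries: it was 1 without replicate 1 of the estrogen group, 3 without its replicate 3 and 2 without its replicate 5, and among controls 3 without replicate 2 or replicate 3 and 2 without replicate 4 or replicate 5. At 84 h only Folr1 passed, where 5.42% of 17180 genes did (3.45% higher, 1.97% lower). The difference between the effects at 84 h and 60 h passed for 0 of the 7 genes, where 0.00560% of genes passed, so the 2 times are not shown to differ. Runs here are stretches of the animal numbers in the labels, and they are not labelled as batches. All estrogen-treated mice carried animal numbers from 1 run, which holds no control, so run and estrogen cannot be told apart.

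Csn3 encodes kappa-casein, which coats and stabilises the casein micelle. It had 5.28, 2.60, 6.68, 1.96 and 3.05 CPM with estrogen at 60 h, against 0.732, 1.46, 0.0298, 0.487 and 0.618 CPM in controls. Every estrogen-treated gland was above every control. The log2 fold change was 2.55 ± 0.66 (SE, adjusted p = 0.0310). At 84 h Csn3 had 3.95, 3.04, 4.43, 6.08 and 3.89 CPM with estrogen, against 0.0972, 0.0953, 2.89, 1.53 and 0.705 CPM in controls, again without overlap. Its fold change there was 2.0 ± 0.78 (log2, adjusted p = 0.143). Replicates 1 and 2 of those controls, near 0.1 CPM, are also low in luminal markers. Leaving out single libraries at 60 h kept the call in 3 of 10 fits, with adjusted p values of 0.0262 to 0.0759.

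Wfdc18 encodes a small secreted protein of the family of whey acidic protein. It had 12.5, 10.0, 17.1, 8.41 and 12.4 CPM with estrogen at 60 h, against 8.24, 0.666, 0.208, 0.696 and 0.814 CPM in controls. The 5 treated glands lay above the 5 controls, and 1 control lay about an order of magnitude above the other 4. The log2 fold change was 2.50 ± 0.73 (adjusted p = 0.0488). The call was kept in 1 of 10 fits that left out a library, the fit without that control, where the fold change was 4.34. At 84 h Wfdc18 averaged 15.5 ± 5.32 CPM with estrogen and 4.57 ± 4.01 CPM in controls (SD, n = 5 each), with overlap, and a log2 difference of 1.75 ± 0.78 (adjusted p = 0.206).

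Ltf encodes lactoferrin, an iron-binding protein of milk and of neutrophil granules. It had 41.9, 51.7, 54.8, 41.2 and 50.2 CPM with estrogen at 60 h, against 16.6, 6.46, 0.655, 9.46 and 6.44 CPM in controls. The lowest treated gland held more than 2 times the highest control. The log2 fold change was 2.60 ± 0.65 (adjusted p = 0.0296), kept in 5 of 10 fits that left out a library. It was lost without the libraries high in skin genes (2.58, adjusted p = 0.0520) and without the filter on low counts (2.59, adjusted p = 0.0548), at nearly the same fold change. At 84 h it averaged 42.7 ± 18.4 CPM with estrogen and 14.9 ± 15.8 CPM in controls, with a log2 difference of 1.51 ± 0.93 (adjusted p = 0.376). The estrogen-treated range at 84 h, 19.8 to 71.1 CPM, overlapped that of controls, 0.619 to 39.0 CPM. The 11 neutrophil markers without Ltf summed to 6.01 to 35.5 CPM with estrogen at 60 h and to 8.04 to 31.8 CPM in controls. Over the 40 libraries their means ran from 0.0255 CPM for Ly6g to 14.2 CPM for Csf3r. The granule genes Ngp, Camp and Mpo averaged 0.0843, 0.0767 and 0.128 CPM, and S100a9, Elane and S100a8 averaged 1.39, 1.04 and 0.979 CPM. The part of neutrophils in the Ltf result was not tested.

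Lalba encodes alpha-lactalbumin, the regulatory subunit of lactose synthase, and is usually taken as a marker of late pregnancy and lactation. It was present in every library, and in controls it ranged from 0.387 to 7.33 CPM. With estrogen at 60 h it had 4.58, 2.87, 2.97, 5.10 and 7.22 CPM, against 5.25, 2.60, 0.387, 3.44 and 1.86 CPM in controls. The groups overlapped, and the log2 difference was 0.75 ± 0.51 with a 95% interval of −0.33 to 1.82 (adjusted p = 0.411). At 84 h it was 0.54 ± 0.69 (adjusted p = 0.707). With CLA the differences were −0.23 ± 0.50 at 108 h (adjusted p = 0.734) and −0.44 ± 0.69 at 132 h (adjusted p = 0.616). Lalba thus passed in no treatment comparison, with intervals that reach a 2-fold change in at least 1 direction.

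Folr1 encodes folate receptor alpha, which is shed into milk as a folate-binding protein. It was the least abundant of the 7 tested genes and the only one that passed, and rose, in all 4 treatment comparisons. With estrogen at 60 h it had 1.30, 0.744, 1.37, 0.827 and 0.993 CPM, against 0.366, 0.233, 0.0893, 0.209 and 0.260 CPM in controls. The log2 fold change was 2.16 ± 0.36 (adjusted p = 0.00363), with no overlap. At 84 h the values were 1.13, 1.32, 0.580, 1.39 and 0.772 CPM with estrogen, against 0.130, 0.0953, 0.326, 0.544 and 0.247 CPM in controls. They did not overlap either, and the fold change was 1.92 ± 0.39 (log2, adjusted p = 0.00605). Both estrogen calls were kept in all 10 fits that left out 1 library. For Anapc15, which overlaps Folr1 on the other strand, the log2 difference with estrogen was 0.31 ± 0.09 (adjusted p = 0.0505) at 60 h and 0.08 ± 0.12 (adjusted p = 0.761) at 84 h.

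**Figure D2:**
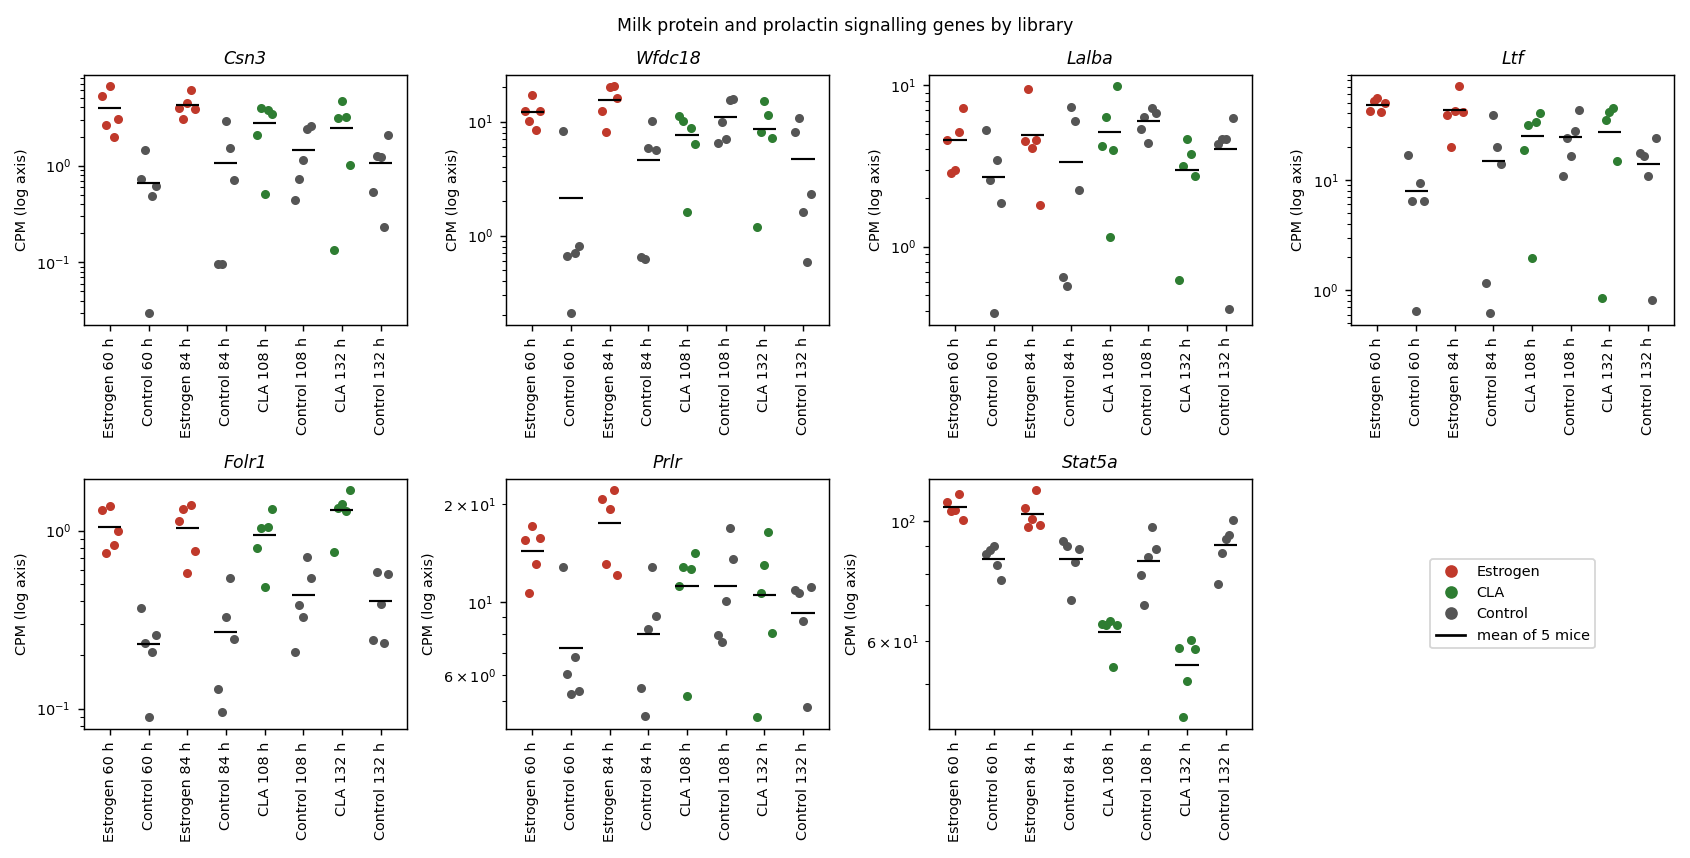
CPM per library on log axes for the 7 tested genes in the 8 groups, 1 point per mouse, with bars at the group means. Csn3, Folr1 and Stat5a show no overlap between estrogen and control at 60 h or at 84 h, and Stat5a lies lower with CLA than in controls at 108 h and 132 h. With estrogen at 84 h only Folr1 passed the test, and the share of all genes without overlap is not given here.

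Prlr, the receptor gene, had 15.5, 10.7, 17.1, 13.1 and 15.7 CPM with estrogen at 60 h, against 12.8, 6.02, 5.24, 6.78 and 5.37 CPM in controls. Only the first control reached the treated range. The log2 fold change was 0.99 ± 0.29 (adjusted p = 0.0482). At 84 h the values were 20.7, 13.1, 19.3, 22.0 and 12.1 CPM with estrogen, against 5.47, 4.48, 8.26, 12.9 and 9.09 CPM in controls, and the log2 difference was 1.11 ± 0.33 (adjusted p = 0.0554). The call at 60 h was kept in 1 of 10 fits that left out a library, the fit without that control. In RPKM the means were 2.10 with estrogen and 1.29 in controls at 60 h, a log2 ratio of 0.70, and limma on log2(RPKM + 0.1) gave an adjusted p of 0.149. CLA-fed glands had a log2 difference in Prlr of −0.00 ± 0.29 at 108 h (95% interval −0.60 to 0.60, adjusted p = 0.993) and 0.18 ± 0.33 at 132 h (adjusted p = 0.655). Prl, the prolactin gene itself, had 0 counts in all 40 libraries, which allows 0.075 to 0.165 CPM per library.

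Stat5a encodes the transcription factor that carries the prolactin signal to the milk protein genes. It was the only one of the 7 that rose with estrogen and fell with CLA. With estrogen at 60 h it had 109, 105, 105, 113 and 101 CPM, against 86.9, 88.7, 90.1, 83.0 and 78.0 CPM in controls. The groups were tight and apart, and the log2 fold change was small, at 0.32 ± 0.07 (adjusted p = 0.0184). At 84 h it had 106, 97.4, 101, 114 and 98.3 CPM with estrogen, against 92.0, 90.1, 71.7, 84.1 and 88.9 CPM in controls. These did not overlap, with a log2 difference of 0.28 ± 0.09 that did not pass (adjusted p = 0.0774).

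With CLA at 108 h Stat5a had 64.5, 64.4, 65.5, 53.8 and 64.4 CPM, against 79.4, 70.1, 85.9, 97.4 and 88.9 CPM in controls. At 132 h it had 58.3, 43.4, 50.8, 60.3 and 58.1 CPM with CLA, against 76.5, 87.4, 92.6, 94.3 and 101 CPM in controls. Every CLA-fed gland lay below every control at both times. Stat5a fell by 0.43 ± 0.07 (log2, adjusted p = 7.19e-05) at 108 h and by 0.74 ± 0.09 (adjusted p = 1.24e-06) at 132 h, and the difference between the times was −0.29 (adjusted p = 0.298). All 20 fits that left out a library and all other settings tried kept both calls, with log2 values of −0.85 to −0.34. Its paralog Stat5b fell with CLA at 132 h by 0.17 ± 0.06 (adjusted p = 0.0178) and had a difference of −0.09 ± 0.06 at 108 h (adjusted p = 0.204). Stat3, which overlaps Stat5a on the other strand, moved the other way: it rose by 0.46 ± 0.08 and 0.33 ± 0.06 with CLA (adjusted p = 0.000167 and 0.000103).

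CLA changed 2 of the 7 tested genes at each time, Folr1 higher and Stat5a lower, at an adjusted p of at most 0.05. This stands against a very wide response of the whole gland: 47.9% of tested genes were called at 108 h (24.9% higher, 23.0% lower) and 56.0% at 132 h (27.0% higher, 29.0% lower), and a count of 2 in 7 does not set these genes apart from the rest. Folr1 had 0.802, 1.04, 0.483, 1.05 and 1.33 CPM with CLA at 108 h, against 0.208, 0.383, 0.326, 0.712 and 0.540 CPM in controls. These overlapped, with a log2 fold change of 1.10 ± 0.34 (adjusted p = 0.0108). At 132 h it had 0.756, 1.34, 1.41, 1.29 and 1.69 CPM with CLA, against 0.244, 0.587, 0.385, 0.233 and 0.571 CPM in controls, with no overlap and a fold change of 1.65 ± 0.37 (log2, adjusted p = 0.000838). The call at 108 h was lost in limma on log2(RPKM + 0.1) (adjusted p = 0.158), on log2(RPKM + 1) (0.202) and without the libraries high in skin genes (0.0948). Anapc15, on the other strand of Folr1, rose with CLA by 0.94 ± 0.09 at 108 h and 1.08 ± 0.12 at 132 h (adjusted p = 1.64e-07 and 5.62e-07), and its part in the Folr1 counts was not tested. In RPKM, Folr1 averaged 0.163 with CLA and 0.0905 in controls at 108 h, and 0.216 with CLA and 0.0728 in controls at 132 h.

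The other milk protein genes did not pass with CLA. Csn3 averaged 2.73 ± 1.45 CPM with CLA and 1.47 ± 0.98 CPM in controls at 108 h (SD, n = 5 each), a log2 difference of 0.90 ± 0.62 (adjusted p = 0.248), and at 132 h the difference was 1.17 ± 0.78 (adjusted p = 0.211). For Wfdc18 it was −0.53 ± 0.68 at 108 h (adjusted p = 0.549) and 0.87 ± 0.77 at 132 h (adjusted p = 0.354). For Ltf it was 0.04 ± 0.61 (adjusted p = 0.965) and 0.98 ± 0.92 (adjusted p = 0.385). In each of these the 1 CLA library low in luminal markers was also far below the other 4: at 132 h it held 0.133 CPM of Csn3 against 1.01 to 4.65, 1.2 CPM of Wfdc18 against 7.18 to 15.1, and 0.845 CPM of Ltf against 14.8 to 44.6.

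**Figure D3:**
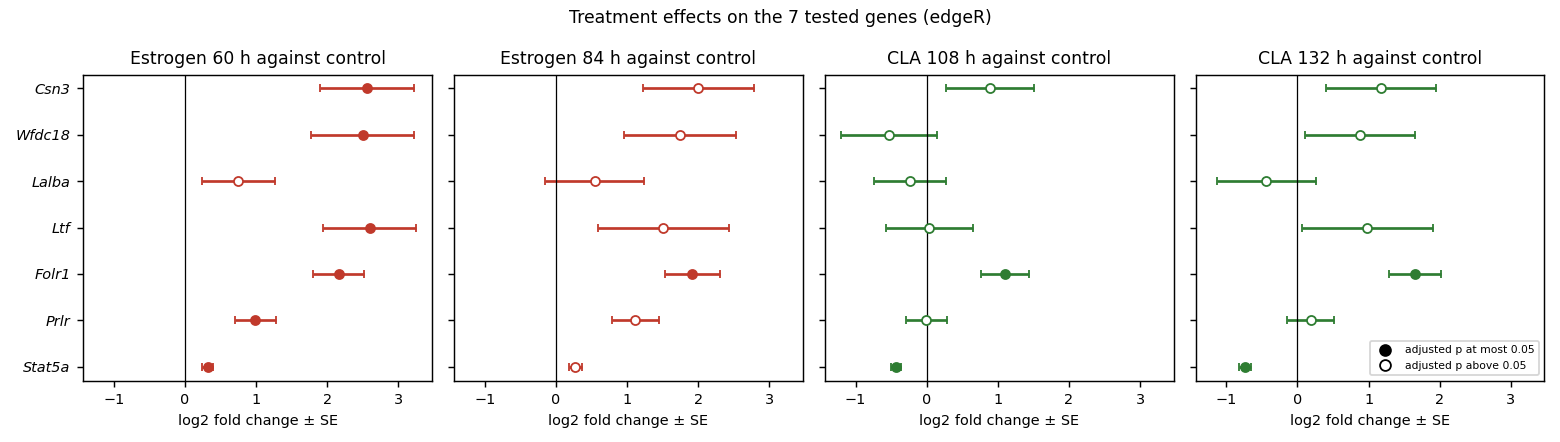
Log2 fold changes with standard errors (horizontal axis) of the 7 tested genes (vertical axis) for treated against control at each time. Filled points passed an adjusted p of 0.05: 6 genes with estrogen at 60 h, Folr1 alone with estrogen at 84 h, and Folr1 and Stat5a with CLA at both times.

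The effects of CLA and of estrogen were compared within a table, as CLA at 108 h minus estrogen at 60 h and CLA at 132 h minus estrogen at 84 h, each effect taken against its own controls. Agent and time differ together in these comparisons and cannot be told apart, and the estrogen effect also carries the run of animal numbers. In the first, 32.1% of all genes passed (17.2% higher, 14.9% lower), and 3 of the 7 did, each with the lower value for CLA. A count of 3 in 7 does not set these genes apart. Of the 20 luminal genes, 14 passed in the same comparison, all lower for CLA, with a median of −2.31. The part of the luminal cells in these differences was not tested. The differences were −3.03 ± 0.99 for Wfdc18 (adjusted p = 0.0264), −2.56 ± 0.88 for Ltf (adjusted p = 0.0351) and −0.75 ± 0.10 for Stat5a (adjusted p = 2.73e-05). Ltf lost its call in 7 of 20 fits that left out a library and both Ltf and Wfdc18 lost it without the filter on low counts. Prlr gave −0.99 (adjusted p = 0.0685) and Folr1 −1.06 (adjusted p = 0.106), so Folr1 is not shown to respond differently. In the second, 38.0% of genes passed (19.1% higher, 18.9% lower) and of the 7 only Stat5a did, at −1.01 ± 0.13 (adjusted p = 6.45e-06).

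Among controls alone, no gene of the 7 passed a test for any difference over 60, 84, 108 and 132 h, where 13.4% of genes did. The smallest adjusted p was 0.133, for Wfdc18, and without the first control at 60 h Wfdc18 did pass. Wfdc18 averaged 2.12 ± 3.43 CPM in controls at 60 h, 4.57 ± 4.01 at 84 h, 10.9 ± 4.44 at 108 h and 4.65 ± 4.44 at 132 h. The CPM of 60 h and 108 h come from 1 table and those of 84 h and 132 h from another, each scaled by itself. Set across both tables, Stat5a ran in the order CLA at 132 h (54.2 ± 7.04 CPM), CLA at 108 h (62.5 ± 4.88), the 4 control groups (84.4 to 90.3) and the 2 estrogen groups (103 and 106). The 4 control groups overlapped each other, as did the 2 CLA groups and the 2 estrogen groups. The highest control, replicate 5 at 132 h with 100.7 CPM, reached into both estrogen ranges. The lowest estrogen libraries had 100.6 CPM at 60 h and 97.4 CPM at 84 h.

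Luminal markers moved with the estrogen results. Of 20 luminal genes, 14 rose and 0 fell with estrogen at 60 h, with a median log2 fold change of 2.34 beside −0.00 over all genes, and 10 rose and 1 fell at 84 h, with a median of 2.19 beside −0.01. These 20 include the hormone targets Areg, Pgr and Wnt4, which the mean of 17 leaves out. Krt8 rose by 3.09 ± 0.71 at 60 h (29.6 ± 14.3 CPM with estrogen, 3.47 ± 3.48 in controls), Krt18 by 2.69 ± 0.69 and Epcam by 2.66 ± 0.64, in the range of Csn3, Wfdc18 and Ltf. The mean of the 17 luminal markers was 4.06 ± 0.41 log2 CPM with estrogen and 1.88 ± 1.04 in controls at 60 h, and 4.46 ± 0.33 with estrogen and 2.28 ± 1.18 in controls at 84 h. With CLA it was 3.23 ± 1.19 against 3.56 ± 0.54 in controls at 108 h, and 3.26 ± 1.01 against 3.01 ± 0.96 at 132 h. The part of the luminal cells in the milk protein results was not tested.

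Set against the luminal mean of the same library, most of the rises with estrogen overlapped the controls. At 60 h the difference between estrogen and control in log2 level minus luminal mean was 1.47 for Wfdc18, 0.97 for Ltf, 0.89 for Csn3 and 0.04 for Folr1, each with overlapping groups. For Prlr it was −1.13 and for Stat5a −1.87, both without overlap. At 84 h it was 0.29 for Wfdc18, 0.55 for Ltf, 0.87 for Csn3 and −0.06 for Folr1, each with overlap. It was −0.99 for Prlr and −1.88 for Stat5a at 84 h, both without overlap. For Lalba, which did not pass with estrogen, it was −1.11 at 60 h and −1.11 at 84 h, with overlap. Prlr and Stat5a thus rose by less than the luminal markers did. With CLA at 108 h it was 1.46 for Folr1 and 1.21 for Csn3, both without overlap, and at 132 h 1.5 for Folr1 and 0.58 for Csn3, both with overlap. With overlap at both times, it was −0.37 for Wfdc18, −0.02 for Ltf, −0.19 for Lalba and 0.31 for Prlr at 108 h. At 132 h these were 0.97, 0.53, −0.49 and −0.11. For Stat5a it was −0.11 with CLA at 108 h and −0.96 at 132 h, both with overlap. Over the 40 libraries Stat5a ran only from 5.48 to 6.84 log2 CPM, against 0.26 to 4.88 for the luminal mean. Their rank correlation was 0.31. The difference for Stat5a thus mostly follows the luminal mean, and its overlap or separation says little about Stat5a itself.

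**Figure D4:**
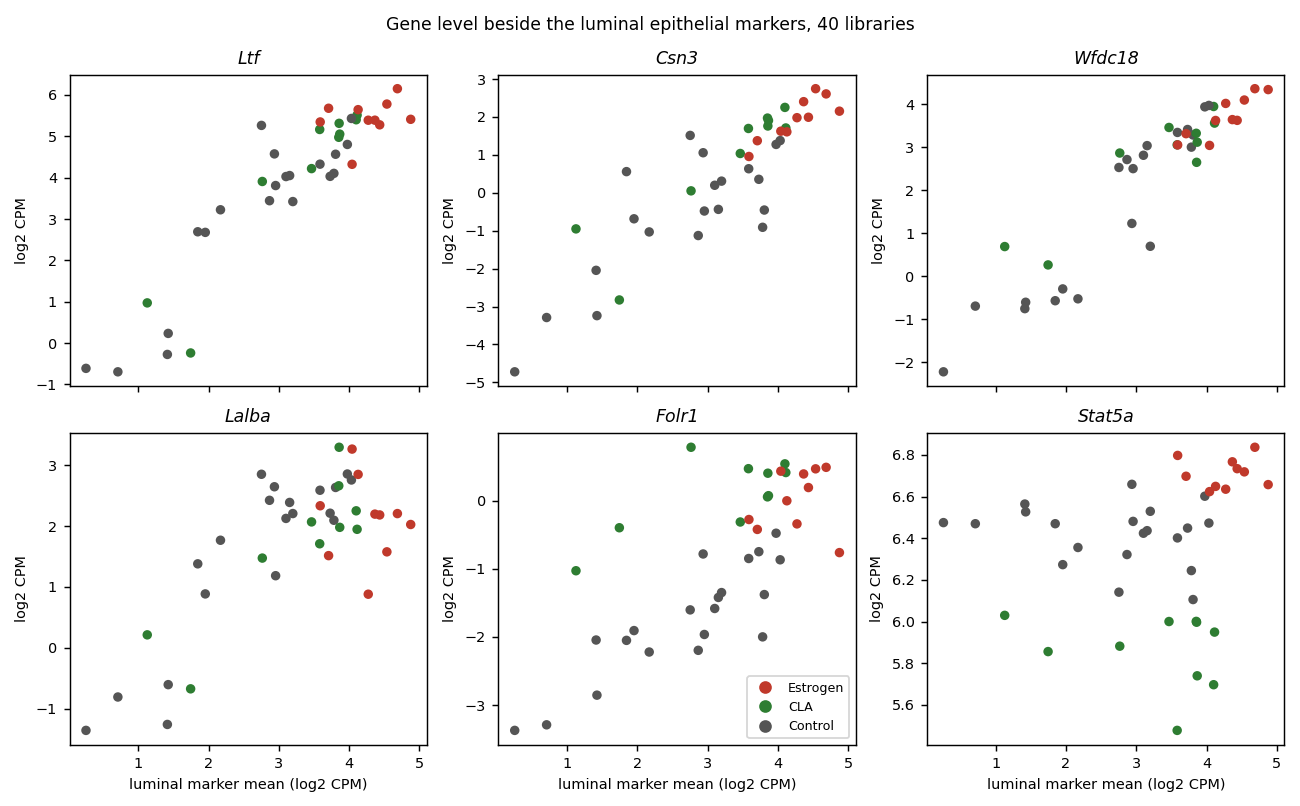
Log2 CPM of 6 genes (vertical axes) beside the mean log2 CPM of 17 luminal markers (horizontal axis) in the 40 libraries, coloured by agent. The 6 libraries lowest in luminal markers are also the 6 lowest in Ltf, while Stat5a is lower in every CLA library than in every estrogen library.

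Over the 40 libraries, which share groups, agents and depth, Spearman's rank correlation with the luminal mean was 0.92 for Wfdc18, 0.91 for Prlr, 0.87 for Csn3, 0.87 for Ltf, 0.70 for Folr1, 0.48 for Lalba and 0.31 for Stat5a, given as a description only. By the same measure the genes most like Prlr were Atp6v1b1 (0.96), Foxa1 (0.96) and Lmx1b (0.95), and those most like Csn3 were Tspan1 (0.93), Krt18 (0.93) and Krt8 (0.93). Ltf was most like Atp6v1b1 (0.92), Tfcp2l1 (0.91) and Aqp5 (0.91), and Wfdc18 most like Col9a3 (0.93), Cldn3 (0.93) and Krt8 (0.92). Folr1 was most like Cited1 (0.90), Ttc39a (0.89) and Lcn2 (0.88). Those most like Stat5a were Gchfr, Retn and Orm3 (0.87 each), and Retn encodes resistin, which mouse fat cells secrete. Stat5a had a rank correlation of 0.60 with the mean of 10 adipocyte genes and −0.72 with that of 9 macrophage genes. With CLA, 9 of the 10 adipocyte genes fell at both times, with medians of −0.77 and −1.09, and 9 of 9 macrophage genes rose, with medians of 2.11 and 3.12. The part of these cells in the fall of Stat5a was not tested.

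The rest of the prolactin pathway was read from a list of 22 genes, of which 20 passed the filter. With estrogen, 2 of the 20 were called at each time. Over all genes tested 6.49% were called at 60 h and 5.42% at 84 h, so neither count sets the list apart. At 60 h, 2 rose and none fell, with a median log2 fold change of −0.03. They were Elf5, a transcription factor that directs the secretory lineage and is itself a prolactin target, by 1.77 ± 0.50 (10.4 ± 2.58 CPM with estrogen, 3.04 ± 1.41 in controls, adjusted p = 0.0424), and the cyclin gene Ccnd1 by 0.65 ± 0.14 (adjusted p = 0.0155). At 84 h Stat3 rose by 0.21 ± 0.06 (adjusted p = 0.0410) and the glucocorticoid receptor gene Nr3c1 fell by 0.33 ± 0.08 (adjusted p = 0.0169). Jak2, the kinase bound to the receptor, had a log2 difference of −0.13 ± 0.07 at 60 h (adjusted p = 0.271) and 0.05 ± 0.06 at 84 h (adjusted p = 0.732). The STAT5 target and feedback inhibitor Cish had means of 5.58 CPM (estrogen) and 11.8 CPM (control) at 60 h, a log2 difference of −1.08 ± 0.49 (adjusted p = 0.189).

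With CLA, 10 of these 20 genes passed at 108 h (5 higher, 5 lower, median −0.09) and 12 at 132 h (6 higher, 6 lower, median −0.05), near the 47.9% and 56.0% called over all genes, so neither count sets the list apart. The falls with the smallest p at both times were those of the insulin receptor gene Insr, by 0.47 ± 0.07 and 0.75 ± 0.08 (adjusted p = 1.19e-05 and 1.34e-07), and the growth hormone receptor gene Ghr, by 0.74 ± 0.13 and 0.87 ± 0.12. Ghr averaged 512 ± 111 CPM with CLA and 856 ± 94.3 CPM in controls at 108 h. The rises at both times included Ptpn1, which encodes a tyrosine phosphatase that acts on insulin signalling, by 0.50 ± 0.08 and 0.58 ± 0.10, and Id2 by 0.68 ± 0.12 and 0.78 ± 0.17. Cish fell at 132 h by 1.61 ± 0.48 (8.87 ± 2.49 CPM with CLA, 27.1 ± 26.1 CPM in controls, adjusted p = 0.00891), and its controls were widely spread. Jak2 had log2 differences of 0.05 ± 0.07 and 0.09 ± 0.06 (adjusted p = 0.625 and 0.215), and Elf5 of −0.42 ± 0.48 and −0.58 ± 0.53 (adjusted p = 0.498 and 0.366).

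Other genes of milk and secretion were read from a list of 16, of which 10 passed the filter. With estrogen 1 rose at 60 h, Mfge8, which encodes a protein of the milk fat globule, by 0.47 ± 0.10 (210 ± 15.5 CPM with estrogen, 152 ± 18.9 in controls, adjusted p = 0.0140). Over all genes tested 6.49% were called at 60 h, so 1 in 10 does not set the list apart. None passed at 84 h, where 6 of the 10 had an unadjusted p below 0.05, as did 3684 of all 17180 genes. Btn1a1, the gene of the fat globule protein butyrophilin, had means of 8.87 CPM (estrogen) and 2.61 CPM (control) at 60 h (adjusted p = 0.0548). The alpha-S2 casein genes Csn1s2a and Csn1s2b were below the filter, with at most 8 and 5 counts in a library.

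With CLA 5 of these 10 genes passed at each time, 2 higher and 3 lower at 108 h (median 0.03) and 3 higher and 2 lower at 132 h (median −0.06), again near the 47.9% and 56.0% over all genes. Spp1, the osteopontin gene, rose by 2.82 ± 0.60 and 2.35 ± 0.48 (34.2 ± 13 CPM with CLA and 4.85 ± 2.64 in controls at 108 h, adjusted p = 0.000934 and 0.000483), and Lcn2, which encodes lipocalin 2, by 1.30 ± 0.42 and 1.39 ± 0.45 (adjusted p = 0.0156 and 0.0146). Both are also made by macrophages, whose 9 markers all rose, and the part of those cells was not tested. Slc34a2, a phosphate transporter gene, fell by 1.80 ± 0.60 and 2.72 ± 0.63 (adjusted p = 0.0194 and 0.00119), on levels of 0.245 CPM with CLA and 0.854 CPM in controls at 108 h. The zinc transporter gene Slc30a2 fell by 1.07 ± 0.35 at 108 h (adjusted p = 0.0177). At 132 h Mfge8 rose by 0.58 ± 0.12 (adjusted p = 0.000456), and Pigr, the receptor gene that carries IgA into milk, fell by 4.21 ± 1.37 (adjusted p = 0.0143). Pigr had 0.403 ± 0.209 CPM with CLA and 7.74 ± 16.8 CPM in controls, a control spread larger than its mean. Xdh, which encodes a fat globule enzyme, had 226 CPM with CLA and 245 CPM in controls at 108 h, with log2 differences of −0.12 ± 0.10 and −0.18 ± 0.10 (adjusted p = 0.329 and 0.141).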

How the data were processed

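RNA-seq of 40 glands was analysed from the deposited tables. The build was GRCm38, per the submitters' processing notes. Which aligner, counter and annotation the authors used is not given in the sources used here. The authors deposited raw counts per gene, 1 table for 60 h and 108 h and 1 for 84 h and 132 h, and a matching pair of tables of RPKM values. Per the labels' protocols, libraries were stranded, poly(A)-selected and made with 10 PCR cycles. Each comparison used edgeR 4.0.16 in R 4.3.3 (quasi-likelihood F test, TMM scaling, robust fit, filterByExpr with a minimum count of 10 and a minimum total of 15) on the 4 groups of a table, or all 40 libraries across tables, with Benjamini-Hochberg adjustment over all genes tested and a threshold of 0.05. Errors of fold changes are standard errors, and ± beside CPM is the SD of 5 mice. CPM are counts per M counts of the library after TMM scaling, and log2 CPM used a prior count of 0.25. The alternatives tried were scaling by RLE or upper quartile, DESeq2 1.42.0, a fit without the filter, a stricter filter (1 CPM in 5 libraries), limma 3.58.1 on log2(RPKM + 0.1) and log2(RPKM + 1) for genes with 0.1 RPKM in 5 libraries, each pair of groups fitted alone, animal-number run added as a term, leaving out the 9 libraries high in skin genes, and leaving out each library.

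The members, the lists and the tests were chosen with earlier results of these data known. Named genes of the lists are, for each treatment comparison, the 4 called genes with the smallest p, beside the 10 genes in every comparison and the 3 genes most like each of 6 of them; Jak2, Elf5, Cish, Btn1a1, Xdh and the genes that overlap a member were added for their roles after values were seen. Scripts were tested on simulated data. Within each group no library was a copy of another: the lowest mean chi-square per gene between libraries of a group was 13.0, where sampling noise gives 1. Libraries of different groups were not compared in this way. The labels give each mouse its own number. Limits for counts of 0 cover counting error only, and reads carry no molecular identifiers. Intervals of fold changes rest on the standard errors of the edgeR fit, which include the spread between mice.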

Additional observations from a re-analysis of the deposited data

Results flagged for a closer look

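In 3 of 58 sets of a gene and a group, 1 mouse stood far from the other 4. Chance flags about 1 in 20 such sets, or 2.9. Prlr in replicate 1 of the controls at 60 h had 12.85 CPM, against 5.24 to 6.78 CPM in the other 4. Wfdc18 in the same library had 8.241 CPM, against 0.208 to 0.814 CPM in the other 4, and its luminal mean of 3.15 log2 CPM was the highest of its group. Stat5a in replicate 4 of CLA at 108 h had 53.83 CPM, against 64.4 to 65.5 CPM in the other 4.

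In 4 cases the test of a difference between a CLA effect and an estrogen effect passed. At CLA 108 h minus estrogen 60 h these were Wfdc18 with −3.03 (adjusted p = 0.0264), Ltf with −2.56 (adjusted p = 0.0351) and Stat5a with −0.75 (adjusted p = 2.73e-05), on the log2 scale in edgeR. At CLA 132 h minus estrogen 84 h it was Stat5a with −1.01 (adjusted p = 6.45e-06).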

How the results depend on the processing

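No paired analysis was possible because the labels give each mouse its own number and no number is shared between groups. Of 922 recomputed values of single genes, 839 kept their direction and side of the threshold and 16 changed sign, each of a gene that was not called, and the cause of these changes was not tested. The 16 are all of CLA. Ltf at 108 h was −0.0164 (log2) with upper-quartile scaling, −0.24 on log2(RPKM + 0.1), −0.0657 on log2(RPKM + 1), −0.22 without the libraries high in skin genes, and −0.19 to 0.34 when each library was left out. Prlr at 108 h was 0.0007 with the 2 groups alone, 0.15 with a term for animal-number run and −0.12 to 0.19 when each library was left out. Over the same fits Lalba at 108 h gave −0.62 to 0.0272 and Prlr at 132 h −0.0318 to 0.38.

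With estrogen at 60 h, the count of all genes called was 593 without a filter, 1863 in DESeq2, 604 on log2(RPKM + 1), 697 without the libraries high in skin genes, 742 with the 2 groups alone and 316 to 1210 when each library was left out, beside 1119. Of the 7 genes, 2 passed without a filter, 3 without the libraries high in skin genes and 1 to 5 when each library was left out, beside 6. At 84 h the count of all genes was 1611 in DESeq2, 303 without the libraries high in skin genes and 443 to 1152 when each library was left out, beside 931. Of the 7, 2 passed with the stricter filter, 3 in DESeq2, 2 on log2(RPKM + 1), 3 with the 2 groups alone and 1 to 2 when each library was left out, beside 1.

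With CLA at 108 h, 1 of the 7 passed on log2(RPKM + 0.1), on log2(RPKM + 1) and without the libraries high in skin genes, beside 2. For CLA at 108 h minus estrogen at 60 h, 1 passed without a filter, beside 3. For CLA at 132 h minus estrogen at 84 h, 3453 of all genes passed without the libraries high in skin genes, beside 6536. The change of the estrogen effect between times gave 17 genes in DESeq2, 0 without the libraries high in skin genes and 1 to 2 when each library was left out. That of the CLA effect gave 0 genes in edgeR (2216 at an unadjusted p below 0.05), 2 without a filter, 124 in DESeq2 and 0 to 137 when each library was left out. Across control times 88 genes passed without the libraries high in skin genes, beside 2385, and of the 7 genes 0 to 1 passed when each library was left out. Limma on RPKM was not run across tables, and a term for animal-number run could be fitted only for CLA.

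Depth limits Csn1s1, Csn2 and Wap, which had at most 10, 2 and 2 counts in a library. None of the 3 passed in any of the 4 treatment comparisons when fitted without the filter.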

Other observations

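CPM divided by RPKM departed from the annotated exon length for each gene listed here. For a gene whose counts and RPKM come from the same reads and library size, this ratio is close to its length in kilobases. The library size used for RPKM is not given in the sources used here. A departure therefore does not by itself show that a different gene length was used. By group means this ratio was 9.01 to 10.1 for Stat5a, whose annotated exons together cover 7.13 kb. It was 3.78 to 6.0 for Folr1 (2.30 kb) and 4.08 to 4.98 for Ltf (3.45 kb). For Wfdc18 it was 1.47 to 1.81 (1.22 kb) and for Lalba 0.987 to 1.19 (0.771 kb). Each of these genes lay above its exon length in every group. Below it in every group were Prlr, at 5.41 to 7.31 (15.3 kb for the exons of all isoforms), and Csn3, at 0.60 to 1.0 (4.15 kb). The ratio of Prlr differed between groups, so its fold change depends on the table: at CLA 108 h the log2 ratio of group means was −0.00 in CPM and −0.35 in RPKM. Folr1, with CLA at 108 h, had a log2 ratio of group means of 1.12 in CPM and 0.85 in RPKM. The ratio of Csn3 differed too, and its log2 ratio of group means with estrogen at 60 h was 2.55 in CPM and 3.10 in RPKM.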
